A study of Mus musculus with 6 samples.

Results

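Clone C6 is 1 of 3 mouse embryonic stem (ES) cell clones, with A1 and B3, that carry the open reading frame of human GTF2I, and its 2 arrays were set against the 4 arrays of the other clones, out of 6 arrays in all. The arrays were assigned by the clone name in their labels, and every feature of the array was compared, 45037 probe sets that represent 18193 named genes. The question was how C6 stood apart from its sister clones in both culture states together, and not how any clone responded to the transgene. All 3 clones came from the EBRTcH3 (EB3) line, grown with leukemia inhibitory factor, in which a coding sequence tagged with 3xFLAG sits in the Rosa26 locus, driven by a promoter that is shut off by tetracycline. Each clone gave 1 array from cells kept in tetracycline (0 hours without it, uninduced) and 1 array from cells grown for 24 hours without it (induced). The titles of the samples name GTF2I, whereas the genotype entry of the labels names GTF2IRD2. C6 is 1 clone, so what belongs to the clone and what belongs to its culture cannot be told apart, and the 4 other arrays come from 2 clones, so p-values measure the spread between these arrays only.

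Values are log2 intensities normalised by robust multi-array averaging (RMA), so a difference of 1 is a 2-fold difference. The array medians lay between 5.06 and 5.11 and the lower quartiles between 3.66 and 3.73, and correlations between arrays were 0.991 to 0.996. The induced minus uninduced differences of A1 ran against those of the other clones over the 17168 probe sets whose mean reached 6 (r = -0.644 with B3 and -0.761 with C6, against 0.667 between B3 and C6). The estimate used here takes the mean of both arrays of each clone, so the size of a difference does not depend on which A1 array carries which state. The errors, p-values, counts of calls and the comparison of states do depend on it wherever the state is a term, and whether the states of the A1 arrays are as labelled was not tested. Differences from A1 and from B3 are also given separately. The ES cell markers Pou5f1, Sox2, Nanog, Zfp42, Utf1, Dppa5a and Tdgf1 were all measured, with a median level of 12.5 to 12.6 in the C6 arrays and 12.4 to 12.6 in the others. Median levels of the 7 fibroblast or feeder cell markers were 4.21 to 4.30 in C6 and 4.08 to 4.18 in the others, and none of these 7 stood outside the other clones on both C6 arrays. Median levels of 2 measured blood markers were 3.61 to 3.64 in C6 and 3.39 to 3.56 in the others. Both ranges lie near the bottom of the scale. Of the 2 markers, Ptprc lay above all other arrays on both C6 arrays. In a wider list of 15 measured blood and endothelial markers, 1 lay above all others (6.67%, against 9.93% of all genes). Below all others lay 2 (13.3%, against 7.46%), among them Cd68, which differed by -0.80 at a mean of 8.12. The part of any feeder or blood cells in the results below was not tested.

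Clones picked from 1 ES cell line start from the same genome, and they can come to differ in chromosome content, in imprinted and X-linked expression, and in the mixture of pluripotent and early differentiating states that ES cells show in serum with leukemia inhibitory factor. Male mouse cells express a small set of Y-linked genes in most tissues, among them Eif2s3y, which encodes a subunit of translation initiation factor eIF2, and Uty, a relative of the histone demethylase Kdm6a. Most of these genes have a partner on the X chromosome.

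Of 7 Y-linked genes, Eif2s3y, Uty and Uba1y were lower in C6 without overlap. With the state as a covariate, limma called 1 of 45037 probe sets (0.00222%) in either direction at an adjusted p of 0.05. It was a probe set of Uba1y, the Y-linked copy of the ubiquitin-activating enzyme, at 6.57 and 6.79 in A1, 6.54 and 6.45 in B3, and 3.22 and 2.58 in C6, giving the uninduced array first here and in all values by array below. It fell by 3.69 on the log2 scale (SE 0.185, adjusted p = 0.0103), and neither C6 array overlapped the other clones. Both C6 values lie below the lower quartile of the arrays, where a level may not be above background, so the size is that of the measured values and gives no exact fold, as for the low C6 values of Eif2s3y and Uty. Leaving out 1 array at a time kept the difference between -4.04 and -3.33 but ended the call in 5 of 6 cases (adjusted p of 0.0709 to 0.211), all but that without the induced A1 array (0.021). The second Uba1y probe set read 6.19 and 6.18 in A1, 6.34 and 6.10 in B3, and 4.96 and 4.78 in C6, a difference of -1.34 ± 0.106 (SE, adjusted p = 0.0556). Both Uba1y probe sets stood at like levels in A1 and B3, with B3 minus A1 of -0.19 and 0.04.

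Eif2s3y had a different order among the clones. It was at 9.35 and 9.03 in A1, 6.74 and 7.10 in B3, and 3.36 and 3.15 in C6, below the lower quartile of all probe sets in C6. The difference of C6 from the mean of the other clones was -4.80 ± 0.764 (SE, adjusted p = 0.392), made up of -5.93 against A1 and -3.66 against B3, with the gap of 2.27 between A1 and B3 inside the error. A fit that gave each clone its own term, so that the gap between A1 and B3 did not enter the error, called the gene lower (adjusted p = 0.000248). So did the fits of C6 against B3 alone (2.6e-06) and against A1 alone (0.000625). The errors of these fits hold no spread between clones. Here and below, their p-values therefore do not place C6 outside the variation between clones. Uty followed the same order, with 6.56 and 6.49 in A1, 4.53 and 4.25 in B3, and 3.48 and 3.19 in C6. Its difference was -2.12 ± 0.710 (SE, adjusted p = 0.788, and 0.00201 with a term for each clone). The second brightest Uty probe set differed by -2.95 and did not overlap either, whereas the 2 dimmest Uty probe sets and the second Eif2s3y probe set, all with a mean below 4, overlapped.

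On their brightest probe sets the other 4 Y-linked genes named here, Usp9y, Kdm5d, Zfy2 and Sry, differed by 0.12, -0.09, 0.13 and 0.04, and their arrays overlapped. Of these, Kdm5d and Zfy2 had means of 3.22 and 3.21 over all arrays, within the lower quartile of the array in every clone. Usp9y had a mean of 4.31, below the median of every array. Sry had a mean of 5.96 on this probe set and 2.76 on its other one. Whether any of these 4 genes was expressed in any clone was not tested. In all, 3 of 7 measured Y-linked genes had both C6 arrays below every other array, against 7.46% of all genes. The X-linked partners, a list added after the values were seen, gave other values. Eif2s3x read 11.88 and 11.93 in A1, 11.93 and 11.83 in B3, and 11.86 and 11.65 in C6 (difference -0.14 ± 0.107, SE). Usp9x, which encodes a deubiquitinase, was above every other array at 9.91 and 9.82 in C6 against 9.27 to 9.55 (difference 0.40 ± 0.116, SE, adjusted p = 0.731), and Kdm6a, Kdm5c and Zfx overlapped. Xist, the RNA that coats an inactive X chromosome, read 7.23 and 7.84 in C6 and 7.21 to 7.43 in the others on its brightest probe set (difference 0.24, 95% confidence interval -0.17 to 0.65), and its other probe sets had a mean below 3.3 over all arrays.

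**Figure D1:**
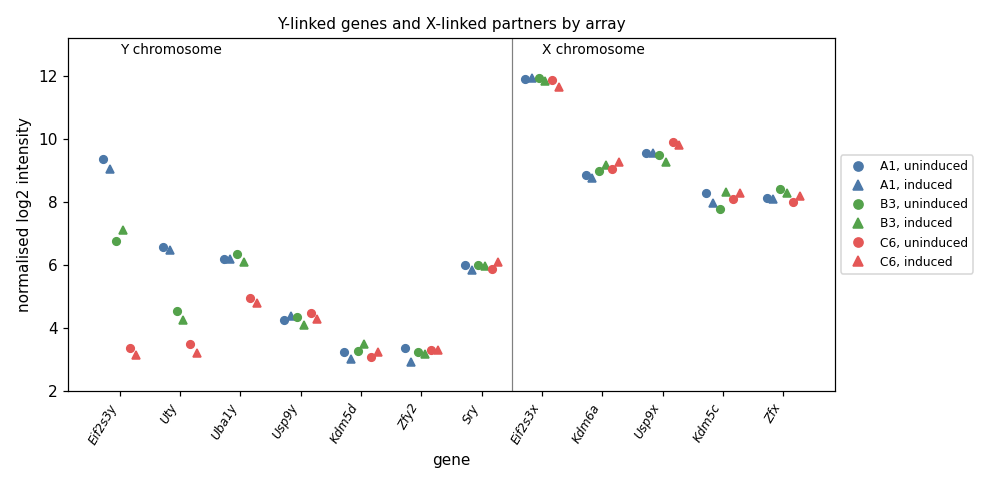
Normalised log2 intensity of 7 Y-linked genes and 5 X-linked partners on each of the 6 arrays, 1 point per array, with clones by colour and states by shape, each gene on its probe set of highest mean. The 2 C6 arrays lie between 3.15 and 3.36 for Eif2s3y, where B3 lies at 6.74 and 7.10 and A1 at 9.35 and 9.03, and the partner Eif2s3x lies between 11.65 and 11.93 on all arrays.

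A probe set for which no gene is named here differed by more. It read 10.30 and 10.01 in A1, 8.54 and 8.59 in B3, and 2.14 and 2.19 in C6, a difference of -7.19 ± 0.536 (SE, adjusted p = 0.0537). A second such probe set had the same order, with 9.41 and 8.98, 7.19 and 7.44, and 3.09 and 3.13 (difference -5.14 ± 0.636, SE, adjusted p = 0.26). The C6 values of both lie below the lower quartile of the arrays, so these sizes too give no exact fold.

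Across the array, wide differences from both sister clones were few. The C6 mean lay between those of A1 and B3 for 39.7% of the 18193 genes. Both C6 arrays lay above all 4 others for 1807 genes (9.93%) and below them for 1358 (7.46%). Taking each named gene on its probe set of highest mean, only 14 genes differed without overlap by more than 1 from each other clone. Of these, 11 were higher and 3 lower in C6. The 3 lower were Eif2s3y, Uty and Uba1y. The 11 higher were BC080696, Nnat, Dppa3, Mageb16, Car2, H2aw, Sh3bgrl, Prom1, Fabp5, Tmem30b and Cyyr1. Probe sets without a named gene, such as those above, were not counted. Nor was a dimmer Cd99 probe set, which differed without overlap by -1.75 from A1 and -3.59 from B3. With a term for each clone, 43 genes were called higher (0.236%) and 23 lower (0.126%), of which 40 and 20 did not overlap. Against B3 alone, 703 genes were called higher (3.86%) and 157 lower (0.863%), whereas against A1 alone 10 were called in each direction (0.055% higher and 0.055% lower). These 2 comparisons share the C6 arrays, and the counts do not rank the distances: the SD of the differences over genes was 0.261 from A1 and 0.249 from B3. The fits hold the state as a term, and the state differences of A1 oppose those of C6. The median SE was 0.143 against A1 and 0.109 against B3. Without the state term it was 0.121 and 0.124, and the counts were 54 genes higher (0.297%) and 85 lower (0.467%) against A1, and 48 higher (0.264%) and 9 lower (0.0495%) against B3. With the state as a term and each gene represented by its probe set of highest mean, Dppa3, Mageb16 and Pdcl2 were called higher against each clone, and Eif2s3y, Uty, Myo1f and Catsperz lower against each.

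**Figure D2:**
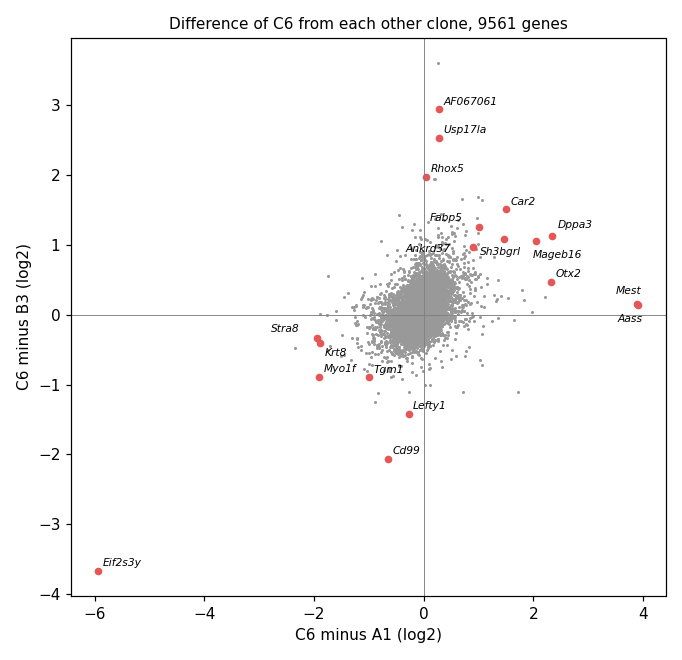
Difference of C6 from A1 (horizontal axis, log2) and from B3 (vertical axis, log2) for the 9561 genes with a mean of at least 6, 1 grey point per gene, with named genes in red. Eif2s3y lies at -5.93 and -3.66, Car2 at 1.50 and 1.51, and Mest near 3.89 on the horizontal axis but at 0.16 on the vertical one.

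Of the genes higher in C6, Car2 was separated best. Car2 encodes carbonic anhydrase 2, which converts carbon dioxide and water to bicarbonate. It read 9.88 and 9.77 in A1, 9.90 and 9.72 in B3, and 11.25 and 11.40 in C6. The difference was 1.51 ± 0.113 (SE), 2.84-fold, and equally large against each clone (1.50 and 1.51), with an adjusted p of 0.0537 in the fit with the state and 0.0111 with a term for each clone. Car3, another carbonic anhydrase, was higher by 1.17 ± 0.184 (SE), at 6.78 and 7.07 in C6 and 5.41 to 6.02 in the others.

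Fabp5, a fatty acid binding protein, read 9.76 and 9.83 in A1, 9.48 and 9.63 in B3, and 10.81 on both C6 arrays. Its difference was 1.13 ± 0.128 (SE, adjusted p = 0.211, and 0.0218 with a term for each clone), and its second probe set gave 1.12. Among genes higher in C6 with a mean of at least 6 and no overlap, those of smallest p after Car2, Ankrd37 (described with the hypoxia genes below) and Fabp5 were Tcf4, a helix-loop-helix transcription factor (0.78), Gask1b (0.85), Adk, the adenosine kinase (0.84), Clybl, a mitochondrial citramalyl-CoA lyase (1.00), Trim36, a ubiquitin ligase (0.93), Hspbap1 (0.86) and Gsta3, a glutathione transferase (0.86). Their adjusted p-values were 0.29 to 0.355 in the fit with the state, and no array of these genes overlapped. Against B3 alone, without the A1 arrays, Car2, Fabp5 and these 7 genes were all called, and against A1 alone none was (adjusted p = 0.0769 for Car2 and 0.127 for Fabp5), though Car2 differed from both clones by the same amount. Without the state term, 5 of these 9 genes were called against A1 (0.0145 for Car2 and 0.0278 for Fabp5) and 3 of 9 against B3 (0.0195 and 0.0238). With a term for each clone, Gask1b and Hspbap1 were also called (adjusted p = 0.0473 and 0.0361).

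Dppa3 and Mageb16 differed more, but with a gap between the other clones. Dppa3, also known as Stella, is a maternal factor of the oocyte and early embryo that is expressed unevenly among ES cells. It read 6.41 and 6.29 in A1, 7.50 and 7.62 in B3, and 8.58 and 8.80 in C6 (difference 1.73 ± 0.413, SE, adjusted p = 0.603, and 0.00767 with a term for each clone). Mageb16, an X-linked gene of the melanoma antigen family, read 7.95 and 7.68 in A1, 8.62 and 8.98 in B3, and 9.75 and 9.97 in C6 (difference 1.55 ± 0.356, SE, adjusted p = 0.561, and 0.0267 with a term for each clone). For both genes the order was A1, B3, C6 from low to high, and no array overlapped between clones. Neurod1, a neuronal transcription factor, was at 8.44 and 8.53 in C6 and 7.11 to 7.66 in the others, a difference of 1.08 ± 0.169 (SE, adjusted p = 0.386), with 1.05 on its second probe set. The 21 measured neural ectoderm genes, of which it is 1, did not share this. Both C6 arrays lay above all others for 2 (9.52%, against 9.93% of all genes) and below for 1 (4.76%, against 7.46%). The C6 mean was lower for 14 of the 21, at a median difference of -0.05. Prom1, which encodes the surface protein prominin, was higher by 1.21, Cyyr1 by 1.02 and the calcium channel gene Ryr3 by 1.13.

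Outside the Y chromosome, Tgm1 and Eno3 had the smallest p among the genes lower in C6 with a mean of at least 6 and no overlap. Tgm1, a transglutaminase of the skin barrier, read 9.81 and 9.89 in A1, 9.78 and 9.73 in B3, and 8.88 and 8.84 in C6 (difference -0.94 ± 0.105, SE, adjusted p = 0.211, and 0.0297 with a term for each clone). Eno3, the muscle form of enolase, read 9.41 and 9.29, 9.07 and 9.17, and 8.31 and 8.32 (difference -0.92 ± 0.128, SE, adjusted p = 0.296, and 0.0361 with a term for each clone). Myo1f, a class I myosin, read 10.26 and 10.33 in A1, 9.19 and 9.34 in B3, and 8.29 and 8.47 in C6 (difference -1.40 ± 0.353, SE, adjusted p = 0.65, and 0.00853 with a term for each clone). The arrays of these 3 genes did not overlap, and each had the A1, B3, C6 order from high to low. The gap between A1 and B3 was widest for Myo1f.

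By the same rule, the 10 lower genes with the smallest p included Tgm1, Eno3 and Eif2s3y, and the other 7 were 2210409E12Rik (-0.85), Tut4, which adds uridines to RNA ends (-0.96), the tubulin gene Tubb2a (-0.71), Tgfbi (-0.83), Nrros (-0.97), the ceramide synthase gene Cers6 (-0.63) and Apom, an apolipoprotein (-0.93), with adjusted p-values of 0.396 to 0.434. Of these 7, only 2210409E12Rik was called with a term for each clone (adjusted p = 0.0361). The surface protein gene Cd99 had differences of -1.36, -2.67 and -1.57 on its 3 probe sets, each larger against B3 than against A1. The brightest probe set read 8.36 and 7.94 in B3, 6.66 and 6.82 in A1, and 6.11 and 6.07 in C6. The probe set at -2.67 read 8.78 and 8.55 in B3, 6.87 and 6.80 in A1, and 5.23 and 4.93 in C6. It was called with a term for each clone (adjusted p = 0.000613) and against each clone alone.

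Genes of known function are given below by list, as counts of members with both C6 arrays above or below all others, to be read against 9.93% above and 7.46% below over all genes, and no list was tested against other genes. Cells short of oxygen stabilise hypoxia-inducible factors, which bind promoters at a short core sequence and raise genes for glucose uptake, glycolysis and mitophagy. Both C6 arrays lay above all others for 8 of 27 measured genes of glycolysis and hypoxia, 29.6% against 9.93% of all genes, and below for 1, and the list's median difference was 0.09 (0.08 against A1 and 0.11 against B3), where that of all genes was -0.001. All but 1 of the 27 had a mean of at least 6, a level where 12.7% of all genes lay above, at a median difference of 0.02. None of the 27 was called with the state as covariate, and Ankrd37 alone was called with a term for each clone.

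Ankrd37, an ankyrin repeat gene that hypoxia-inducible factor drives, read 6.60 and 6.68 in A1, 6.47 and 6.67 in B3, and 7.53 and 7.55 in C6. Its difference was 0.93 ± 0.105 (SE, adjusted p = 0.211, and 0.0326 with a term for each clone). Aldoc, a glycolytic aldolase, was at 8.81 and 8.70 in C6 and 7.90 to 8.20 in the others (difference 0.68 ± 0.127, SE). Bnip3, a mitophagy receptor, was at 10.72 and 10.68 in C6 and 9.91 to 10.26 in the others (difference 0.59 ± 0.117, SE). The promoters of these 3 genes from RefSeq (build GRCm38.p6, 250 bases before to 50 after the start, the first window listed for each gene) are shown because they hold the core of the hypoxia response element, ACGTG or GCGTG on either strand, which is in capitals; CACGTG is an ACGTG on both strands and also the E-box of other factors.
Ankrd37, chr8:45999801-46000100, strand -: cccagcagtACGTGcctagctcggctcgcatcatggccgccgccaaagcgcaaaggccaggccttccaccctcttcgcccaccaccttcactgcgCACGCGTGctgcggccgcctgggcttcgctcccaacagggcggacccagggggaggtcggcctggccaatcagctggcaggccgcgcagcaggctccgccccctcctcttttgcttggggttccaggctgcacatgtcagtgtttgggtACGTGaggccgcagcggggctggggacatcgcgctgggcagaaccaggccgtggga
Aldoc, chr11:78322823-78323122, strand +: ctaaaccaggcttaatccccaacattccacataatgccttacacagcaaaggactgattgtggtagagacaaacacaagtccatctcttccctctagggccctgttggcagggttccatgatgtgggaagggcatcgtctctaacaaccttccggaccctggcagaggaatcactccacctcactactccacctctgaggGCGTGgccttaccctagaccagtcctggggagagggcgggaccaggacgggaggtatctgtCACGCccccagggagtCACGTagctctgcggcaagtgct
Bnip3, chr7:138909457-138909756, strand -: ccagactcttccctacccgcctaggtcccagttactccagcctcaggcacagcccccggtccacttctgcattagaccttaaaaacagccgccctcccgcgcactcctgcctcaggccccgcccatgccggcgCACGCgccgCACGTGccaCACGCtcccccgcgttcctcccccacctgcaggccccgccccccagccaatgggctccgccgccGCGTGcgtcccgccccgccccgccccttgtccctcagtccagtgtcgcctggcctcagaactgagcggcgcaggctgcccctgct

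All 8 genes of the list with both C6 arrays above the others had at least 1 match to the core in this window, as did 11 of the other 17 list genes with a promoter (64.7%) and 55.6% of the 14452 array genes with a promoter, or 43.8% of all 27025 promoters. The 8 genes were picked by their C6 values from a list of hypoxia genes, and the shares were not tested against each other. A match describes the letters of the window and not the binding of a factor. The other 5 of the 8 were Slc2a1, the main glucose transporter (0.43), P4ha1, a collagen prolyl hydroxylase subunit (0.43), Pfkp, a phosphofructokinase (0.35), Pgk1 (0.21) and Ldha (0.18), the last pair being enzymes of glycolysis. Several classical targets did not stand apart, with differences of 0.09 for Vegfa, 0.06 for Pdk1 and -0.22 for Car9, and Ero1a was below the others by 0.18. Levels of Hif1a, which encodes the factor's alpha subunit, differed by -0.001.

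The tumour suppressor p53 raises genes that arrest the cell cycle or start cell death. Both C6 arrays lay above all others for 9 of 24 measured p53 targets and apoptosis genes (37.5%, against 9.93% of all genes). They lay below for 3 (12.5%, against 7.46%), and the list's median difference was 0.11. Most genes of the list had a mean of at least 6, a level where 12.7% of all genes lay above. Plk2, a kinase, read 9.06 and 8.92 in A1, 8.67 and 8.71 in B3, and 9.35 and 9.55 in C6 (difference 0.61 ± 0.150, SE, adjusted p = 0.634). Zmat3, an RNA-binding p53 target, was at 10.04 and 10.15 in C6 and 9.45 to 9.67 in the others (difference 0.49 ± 0.109, SE, adjusted p = 0.539). Btg2, which restrains proliferation, was higher by 0.55, Apaf1, the apoptosome scaffold, by 0.54, Ccng1, a cyclin, by 0.42, and Trp53inp1 by 0.49.

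Pmaip1, which encodes the BH3-only protein Noxa, was higher by 0.78, at 8.32 and 8.21 in C6, 7.79 and 7.86 in A1 and 7.18 and 7.13 in B3. Sesn1, a stress-induced p53 target, went the other way at 7.88 and 7.72 in C6 and 8.23 to 8.54 in the others (difference -0.51 ± 0.135, SE), and so did the survival gene Bcl2l1 (-0.23). Cdkn1a, which encodes the cell cycle inhibitor p21, differed by 0.05 and its arrays overlapped. No gene of this list was called with the state as covariate or with a term for each clone.

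Of the imprinted genes that are expressed from the paternal allele, 7 of 28 measured had both C6 arrays above all others (25%, against 9.93% of all genes) and none below (7.46%). Nnat, a neuronal membrane proteolipid, read 4.49 and 4.97 in A1, 5.57 and 5.51 in B3, and 7.28 and 6.47 in C6 (difference 1.74 ± 0.354, SE, adjusted p = 0.46). Ndn, a gene of the Prader-Willi region, read 7.26 and 6.90, 6.29 and 6.72, and 7.62 and 7.98 (difference 1.01 ± 0.259, SE, adjusted p = 0.653). Sfmbt2, a Polycomb protein, was higher by 0.64, Mkrn3 by 0.35 and Inpp5f by 0.30, and the 2 others, Peg12 and Nap1l5, had values below 4.1 on all arrays. Of imprinted genes expressed from the maternal allele, 3 of 27 were above (11.1%) and 2 below (7.41%), which is close to the shares of all genes.

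Mest, also expressed from the paternal allele, gave a difference of 2.02, but this came from A1 alone, since it read 5.90 and 6.01 in A1, 9.83 and 9.54 in B3, and 9.90 and 9.79 in C6. Aass, a lysine degradation enzyme on the same chromosome, had the same pattern (5.81 and 5.50, 9.42 and 9.45, and 9.54 and 9.60). Both were called with a term for each clone (adjusted p = 0.00396 each), whereas against B3 alone their adjusted p-values were 0.467 and 0.52. Such genes were among the calls of that fit. Of the 43 genes called higher, 28 differed by more than 0.5 from each clone, 7 lay within 0.5 of B3 and 8 within 0.5 of A1. Of the 23 called lower, the numbers were 13, 9 and 1.

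The genes near the A1 level included Usp17la, a deubiquitinase of the 2-cell-like program, at 8.01 and 7.85 in A1, 5.74 and 5.61 in B3, and 8.19 and 8.23 in C6. ES cell cultures hold a minor fraction of cells that express transcripts of the 2-cell embryo. Of the 11 measured 2-cell-like genes, all had a C6 mean above that of the other clones and 4 lay above every other array (36.4%, against 9.93% of all genes), 7 of the 11 having a mean below 6, with a median difference of 0.52 against B3 and 0.15 against A1. The genes near the B3 level included Otx2, a factor of the primed epiblast, at 5.70 and 5.50 in A1, 7.35 and 7.55 in B3, and 7.91 and 7.93 in C6. Krt8, an epithelial keratin, was likewise close to B3, at 7.85 and 7.84 in A1, 6.35 and 6.38 in B3, and 6.04 and 5.89 in C6, and so was Stra8, a gene of meiotic entry, with differences of -1.94 from A1 and -0.33 from B3. Germline genes went both ways. Of 29 measured, 2 lay above every other array (6.9%, against 9.93% of all genes) and 3 below (10.3%, against 7.46%). The 2 above were Hormad1 (0.64) and Sycp2 (0.38, at a mean of 3.00).

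Core pluripotency genes did not stand apart. None of the 8 core pluripotency factors stood outside the other clones on both C6 arrays, and the list's median difference was -0.03. Pou5f1 differed by -0.08 (95% confidence interval -0.42 to 0.27), Sox2 by 0.07 (-0.21 to 0.35) and Nanog by 0.02 (-0.30 to 0.34). Genes of the primitive endoderm, which forms the yolk sac, lay below the other clones for 7 of 21 measured (33.3%, against 7.46% of all genes) and above for none, with a median difference of -0.16. Col4a1, a basement membrane collagen, read 7.47 and 7.53 in A1, 6.87 and 6.74 in B3, and 6.71 and 6.02 in C6 (difference -0.79 ± 0.281, SE, adjusted p = 0.799). Sox7 differed by -0.51 and Col4a2 by -0.42, and the defining factor Gata6 by -0.23 at values under 5. In 13 of the 21 genes the mean was below 6, and for Col4a1, Sox7 and Col4a2 the A1 arrays were highest. Of 6 defining endoderm markers, 2 lay below the other clones, with a median level of 4.75 to 4.76 in C6 and 4.78 to 4.96 in the others.

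**Figure D3:**
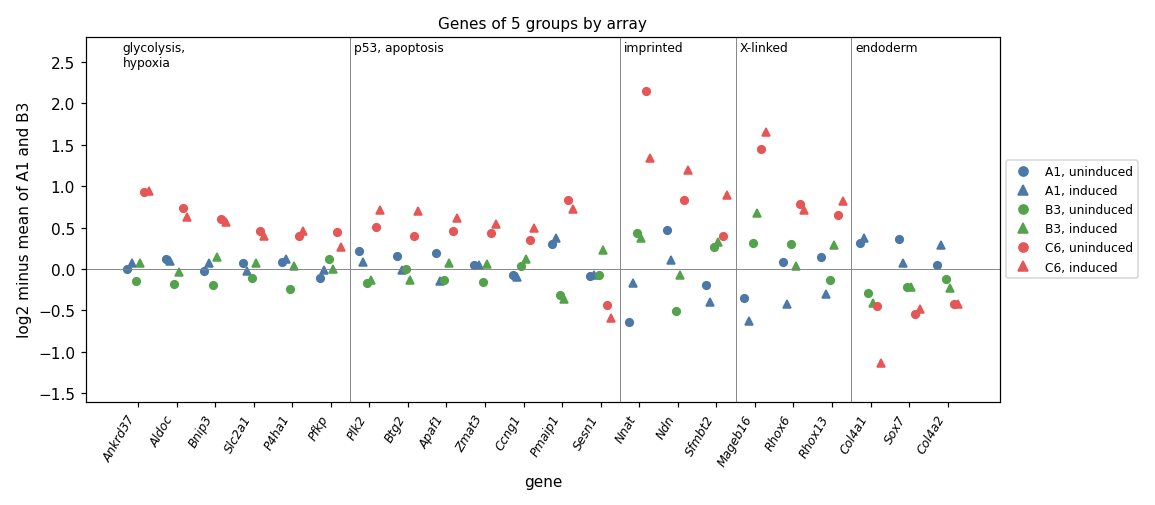
Difference of each array from the mean of A1 and B3 (log2) for 22 genes of 5 groups, 1 point per array, with clones by colour and states by shape. The red C6 points lie above all others in the first 4 groups except for Sesn1, and below all others for the 3 endoderm genes. All 22 genes were chosen with their values known and have both C6 arrays outside the others, so this separation follows from the choice. Other members of their lists, among them genes that overlap, are not shown.

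Mitosis and spindle genes had both C6 arrays above all others for 9 of 31 measured (29%) and below for none, at a median difference of 0.09. All 31 had a mean of at least 6, and 12.7% of all genes of that level lay above and 7.55% below, at a median of 0.02. The 2 with the smallest p were Cenpf (0.47 ± 0.117, SE) and Cenpe (0.42 ± 0.119, SE), both kinetochore proteins. Cytosolic ribosomal proteins were above for 7 of 28 (25%) and below for 1, at a median difference of 0.02, the same as that of all genes with a mean of at least 6, among them Rps19 (0.09) and Rps15 (0.09). Heterochromatin silencing genes were above for 5 of 22 (22.7%) and below for 1. The share above was 9.93% for all genes and 12.7% for those with a mean of at least 6. Those above included Tasor (0.58) and Mphosph8 (0.35), subunits of the HUSH complex, and Smchd1 (0.37). Of 25 naive state genes, 1 lay above (4%, against 9.93% of all genes), which was Dppa3, and 3 below (12%, against 7.46%), Tbx3 (-0.48), Fgf4 (-0.23) and Tfcp2l1 (-0.25), all lower than in each of the other clones. None of the 19 mesoderm genes lay outside the other clones on both C6 arrays. Lefty2, a Nodal antagonist, was below by 0.48 and its relative Lefty1 by 0.85, mainly against B3, at 9.78 and 10.04 in A1, 11.04 and 11.08 in B3, and 9.56 and 9.72 in C6. Skil, a repressor of SMAD signalling, was above by 0.65, and Sfrp1, a secreted Wnt antagonist, was below by 0.99. With the state as covariate, their adjusted p-values were 0.489 and 0.663, and that of Lefty2 was 0.597. Of 22 Nodal and activin pathway genes, 2 lay above (9.09%, against 9.93% of all genes) and 4 below (18.2%, against 7.46%). Of 34 Wnt pathway genes, 2 lay above and 2 below (5.88% each), under the shares of all genes. Of 26 genes of the ATF4 amino acid response, 2 lay above (7.69%, against 9.93% of all genes) and 5 below (19.2%, against 7.46%), with Ddit4, an mTORC1 inhibitor, higher by 0.61 and Cth, the enzyme that makes cysteine, differing by -0.70. Over all 41 lists, no gene's brightest probe set was called with the state as covariate.

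The mouse Gtf2i gene, the counterpart of the transgene, read 10.31 and 10.46 in A1, 10.69 and 10.79 in B3, and 11.02 and 10.80 in C6 on its brightest probe set (difference 0.35, 95% confidence interval -0.04 to 0.74). Whether this probe set also reads the human coding sequence was not tested. Its other 3 probe sets overlapped between the groups. Gtf2ird1 differed by -0.27 with overlap, and Gtf2ird2 by 0.15 without overlap at a mean of 5.76. Eif4h, a translation factor gene of the Williams-Beuren region, was below every other array on 5 of its 6 probe sets, with a difference of -0.22 on the brightest. None of the 10 genes around the Rosa26 locus lay outside the other clones on both C6 arrays, and their median difference was -0.03.

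By chromosome, taking 9543 genes with a mean of at least 6 and a known chromosome, the median differences of 18 of 19 autosomes lay between -0.001 and 0.042. Chromosome 15 was at -0.13 over 396 genes, and this came from the A1 side, since C6 minus A1 was -0.32 and C6 minus B3 was 0.02. The X chromosome was at 0.07 over 294 genes, with 0.05 against A1 and 0.13 against B3. Of the X-linked genes, 67% were higher in C6, against 54% of all these genes, and 18.4% lay above all other arrays, against 12.7% of them. The 5 X-linked genes with the smallest p were Sh3bgrl, which encodes a small thioredoxin-like protein, Map7d2, Tmem47, Pls3 and Stk26.

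Sh3bgrl read 6.14 and 5.82 in A1, 6.23 and 6.48 in B3, and 7.30 and 7.60 in C6, with differences of 1.28, 1.14 and 1.34 on its 3 probe sets (adjusted p = 0.357, 0.176 and 0.211). Pls3, an actin-bundling plastin, was at 7.28 and 7.58 in C6 and 6.05 to 6.66 in the others (difference 1.05 ± 0.198, SE). Map7d2, Tmem47 and Stk26 differed by 0.74, 0.95 and 0.79, again without overlap. Among X-linked genes of X inactivation and reproduction, 5 of 14 lay above all other arrays (35.7%, against 9.93% of all genes and 18.4% of the X-linked genes with a mean of at least 6) and none below: Mageb16, the homeobox genes Rhox6 (0.75) and Rhox13 (0.74), and Ftx (0.54) and Tsix (0.30), both noncoding RNAs of the X inactivation centre. Of these 14 genes, 7 had a mean below 6. Ftx had a mean of 3.22 over all arrays, below their lower quartiles, where a level may not be above background. Rhox5 was at the A1 level, with 9.39 and 9.05 in A1, 7.16 and 7.42 in B3, and 9.05 and 9.49 in C6.

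**Figure D4:**
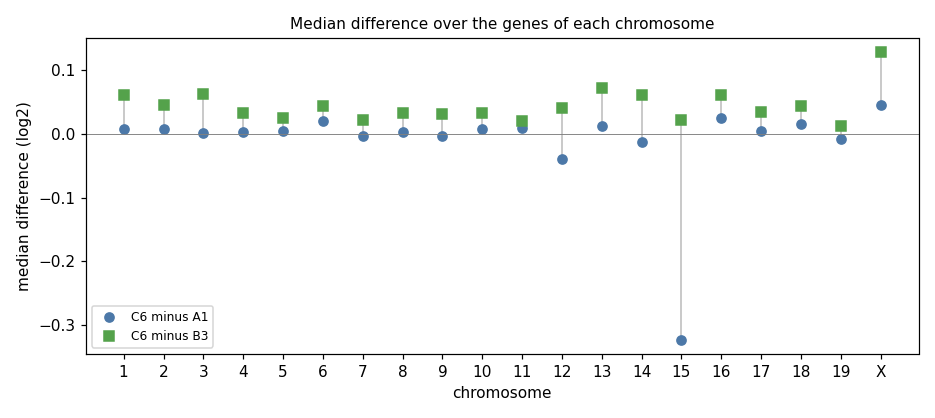
Median difference of C6 from A1 (blue circles) and from B3 (green squares) over the genes of each chromosome with a mean of at least 6 (vertical axis, log2). Chromosome 15 lies at -0.32 against A1 and 0.02 against B3, and the X chromosome at 0.05 and 0.13.

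Cutting the chromosomes into 382 runs of 24 to 26 neighbouring genes in the order of GRCm38.p6 located the shifts on chromosomes 12, 14 and 15, where C6 differed from 1 of the other clones and not from the other by as much. On chromosome 15, C6 minus A1 was 0.02 to 0.09 over the first 4 runs and -0.38 to -0.49 over the last 11, from Naprt to Ppp1r1a, while C6 minus B3 stayed between -0.09 and 0.12 over those runs. On chromosome 14 it was -0.78 in the run from Sorbs3 to Tpt1, -0.77 in the run from Gtf2f2 to Klf12, and 0.61 in the last run, from Commd6 to Tmtc4, where C6 minus B3 was 0.09, 0.10 and -0.005. On chromosome 12, the run from Meg3 to Zfyve21 was 0.55 higher than in B3 and differed by -0.05 from A1. Only 9 of the 382 runs differed by more than 0.1 in the same direction from each clone, 4 of them on the X chromosome. They included the X-linked run from Nexmif to Armcx4, with 0.22 against A1 and 0.17 against B3, and the run from Rc3h2 to Gpd2 on chromosome 2, with 0.165 and 0.242. Genes of a run share their place and are not independent, and the runs were cut after the data were seen.

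**Figure D5:**
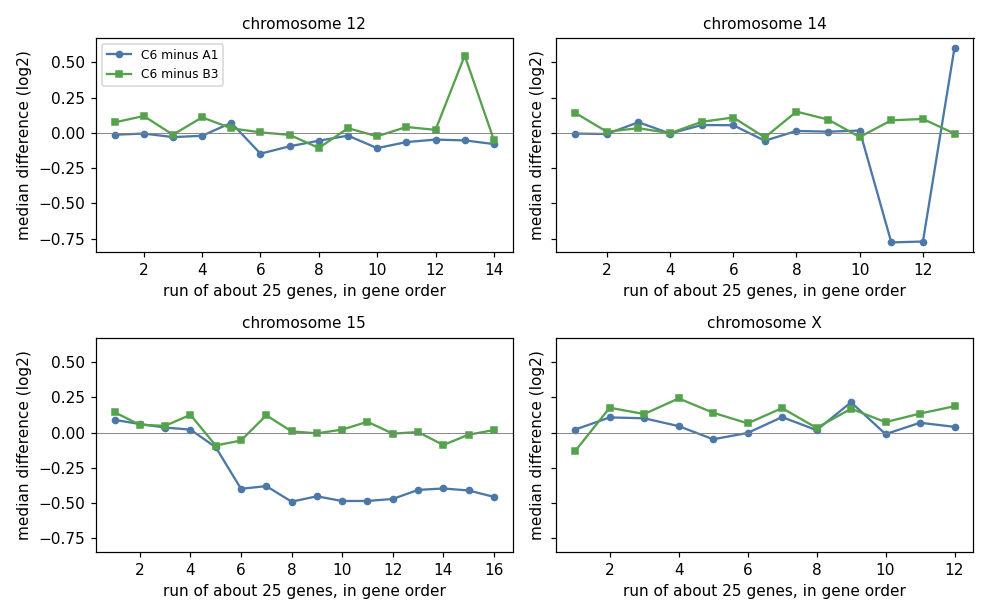
Median difference of C6 from A1 (blue) and from B3 (green) in consecutive runs of about 25 genes along chromosomes 12, 14, 15 and X (horizontal axis, run number in gene order; vertical axis, log2). The blue line drops to -0.78 near the end of chromosome 14 and stays between -0.38 and -0.49 over the last 11 runs of chromosome 15, while the green line reaches 0.55 in 1 run of chromosome 12.

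The difference of C6 did not change detectably with the state. For C6 against the others in the induced arrays minus that in the uninduced arrays, limma called 0 of 45037 probe sets (0%), with 560 at an unadjusted p under 0.05 and a smallest adjusted p of 1. With 1 C6 array in each state, this comparison has little power. It also sets the change of C6 against the mean change of A1 and B3, which run opposite (r = -0.644), so that they partly cancel and add to the error, and its value depends on the states of the A1 arrays being as labelled.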

How the data were processed

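Total RNA of undifferentiated ES cells was hybridised to Affymetrix mouse whole-genome arrays, 1 per clone and state. The authors summarised and normalised the arrays with RMA (affy), and the deposited values are log2 intensities. Which arrays were normalised as 1 set, and a build, were not given in the sources used here. The arrays' number limits the precision. From 45101 probe sets, 64 controls were left out. The platform annotation gave 1 gene symbol for 34945 of the 45037 tested, several for 932 and none for 9160, and symbols were updated through RefSeq (GRCm38.p6) where the gene was found there (34741). A gene was represented by its probe set with the highest mean. limma (version 3.58.1, R 4.3.3) fitted state and clone group (C6 against A1 and B3) with p-values adjusted by Benjamini-Hochberg across the array and a threshold of 0.05. It was also run on simulated data that held no gap between A1 and B3. That run therefore does not show how the fit behaves where such a gap is present. Alternatives were a term for each clone, other variance models, scalings, filters and left-out arrays. List members were matched by symbol or synonym. Arrays of the same clone deviated together (r = 0.19 in A1, 0.532 in B3 and 0.312 in C6), so the clone pairs the states. Genes named in the text were the 10 per direction with the smallest p, a mean of at least 6 and no overlap, up to 2 per list, fixed genes, and up to 5 on the chromosomes with the most extreme medians; others were chosen after their values were seen, as was the list of X-linked partners. The comparison, lists and rules were chosen with earlier results of these data known.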

Additional observations from a re-analysis of the deposited data

Results flagged for a closer look

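Among 109 named genes, 2 had 1 of the 4 A1 and B3 arrays far from the other 3, where chance alone would single out about 1 in 20 groups. For Zmat3, the uninduced B3 array read 9.45 and the other 3 read 9.65 to 9.67, a gap of 0.949 of the group's range. For Ptprc, a blood cell marker near the bottom of the scale, the uninduced A1 array read 2.97 and the others 2.63 to 2.68, a gap of 0.839 of the range. Both values exceeded Dixon's critical value for 4 samples.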

How the results depend on the processing

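With the state as covariate, 0 probe sets were called higher and 1 lower in C6, with 2526 at an unadjusted p under 0.05. With each clone as its own term (clone as a replicate block, which pairs the arrays of a clone), 70 were called higher and 45 lower. The counts were 2 higher and 3 lower without the state covariate, 2 and 2 with a variance trend, 26 and 13 with array weights, 1 and 2 after another quantile normalisation, and 1 and 3 at an adjusted p of 0.10. They were 1274 and 360 without both A1 arrays and 11 and 19 without both B3 arrays, and without the state covariate as well, an alternative chosen after seeing the data, 88 and 22 without A1 and 87 and 160 without B3. No probe set was called in either direction by the methods' t-test (3077 at an unadjusted p under 0.05), among those whose mean reached 6 (1154), with 1 probe set per gene (1149), within the uninduced (682) or induced (1545) arrays, with chromosomes 14, 15, X and Y left out, an alternative chosen after seeing the data (2319), or at an adjusted p of 0.01. Leaving out 1 array at a time gave 0 higher and 0 to 1 lower, with the call on Uba1y kept only without the induced A1 array. Clone as a random block, a robust fit, equal array medians and a mean of at least 4 left 0 and 1. No called value changed direction, and of 110 named genes and probe sets 102 kept their sign under every alternative. Of 2692 values of these under alternatives, 93 passed the threshold where the value above did not, 9 lost it, and 14, none of them called, changed sign. Signal over background could not be assessed per probe set, since detection calls were not used here.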
